A study of Mus musculus with 6 samples.

Results

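The genes that code for collagen chains were examined in messenger RNA of heart muscle cell preparations, taken from C57BL/6J mice and divided into 2 sub-populations by flow cytometry. The members are all genes of the deposited table whose symbol is Col, a number, the letter a and a number, which gave 44 of 23404 genes. FITChigh/FSCdim (FITChigh) events were bright in the green FITC channel and dim in forward scatter, a measure that grows with particle size, and FITCdim/FSChigh (FITCdim) events were the reverse. There were 3 libraries of each sub-population, called biological replicates in the series text. The labels name the same strain and the same source, cardiomyocytes, for all 6 libraries, and they name no treatment or allele. The series title gives the aim as the isolation of highly purified ventricular cardiomyocytes by autofluorescence.

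Collagens are trimers of alpha chains wound into a triple helix, and each chain has its own gene. Fibrillar collagens form the tensile fibres of the space between heart cells and are made chiefly by fibroblasts. Type IV collagen is a sheet-forming network in the basement membranes that surround myocytes, capillaries and mural cells. FACIT collagens (fibril-associated collagens with interrupted triple helices) bind to the surface of fibrils, and type VI forms beaded filaments close to cell surfaces. Multiplexins sit where basement membranes meet the surrounding matrix.

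The libraries held 1589825 to 3345994 recovered reads, and the deposited values are read counts adjusted to a common library size (adjusted read counts below). After adjustment the totals still differed, at 2030583 to 2112872 for FITCdim libraries and 2333473 to 2443707 for FITChigh libraries. The labelled cell type was seen in every library. Of 15 cardiomyocyte markers 1 was higher, 0 were lower and 14 did not pass, and their summed level was 411041 to 445619 in FITChigh and 260653 to 318336 in FITCdim. The largest part of that sum was Myh6 (mean 159480 against 96706), which was not called. Markers of other cells were present in both sub-populations and were mostly lower in FITChigh. Of all 12907 genes tested, 13.5% were lower. All 13 endothelial markers were lower (summed 785 to 1093 against 5587 to 6234), as were 9 of 11 of pericytes and smooth muscle (1397 to 1854 against 1967 to 2594). Most of the latter sum came from Abcc9 (mean 1228 against 1148) and Acta2 (304 against 414), which were not called. Rgs5, the most abundant called marker of that list, had a mean of 32.8 against 250. Also lower were 5 of 8 tested fibroblast markers (218 to 275 against 436 to 604), all 8 macrophage markers (81.3 to 116 against 406 to 919) and all 6 epicardial markers (10.5 to 15.9 against 83.3 to 168). Fbln1, a fibroblast marker not called, had a mean of 169 against 188, and Tcf21 was not tested, with 0 reads against 4. Atrial myocyte markers were lower too, 6 of 6 (234 to 493 against 1232 to 2603). Of 3 tested Schwann cell markers 1, Mbp, was lower, and the whole Schwann list summed to 12.4 to 18.2 against 11.8 to 26.7. Foxd3 was listed at 0 in all 6 libraries. Mbp and the pericyte marker Higd1b stayed under 1 adjusted read count in every FITChigh library, so FITCdim alone let them be tested. Mfap5, Dpt, Emr1, Cd14, Upk3b, Msln, Lrrn4 and Aldh1a2 reached 1 in only some FITChigh libraries. The part of the marked cell types in the collagen differences was not tested. In bulk samples, fewer cells of a type and less RNA per cell cannot be told apart.

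Collagen messenger RNA was lower in FITChigh, and the chains differed in how far. Of 44 chains, 28 passed the filter on low values (at least 1 adjusted read count in at least 3 libraries). By limma's test with Benjamini-Hochberg adjustment over all genes tested, 19 of these 28 were lower in FITChigh, 0 were higher and 9 did not pass the test. Lower chains made up 67.9% of those tested, beside 13.5% of all 12907 genes tested, and the share of higher genes in the whole table was 2.51%. Of all calls 15.6% were higher, against 1.84% after rescaling all libraries to the same total and 27.8% after quantile normalization. In 20 of the 28 chains every FITChigh library lay below every FITCdim library, which held for 20.2% of all genes tested. The median log2 fold change, FITChigh minus FITCdim, was -1.99 over the tested chains and -0.01 over all genes tested. Of the 19 lower chains, 1 (Col13a1) reached an adjusted read count of 1 in none of the FITChigh libraries and 5 in only 1 or 2 of them, so these passed the filter through FITCdim. Together the 44 chains took 0.0766% ± 0.00855 of a FITChigh library's adjusted total and 0.199% ± 0.0217 of that of a FITCdim library (SD over 3 libraries each).

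**Figure D1:**
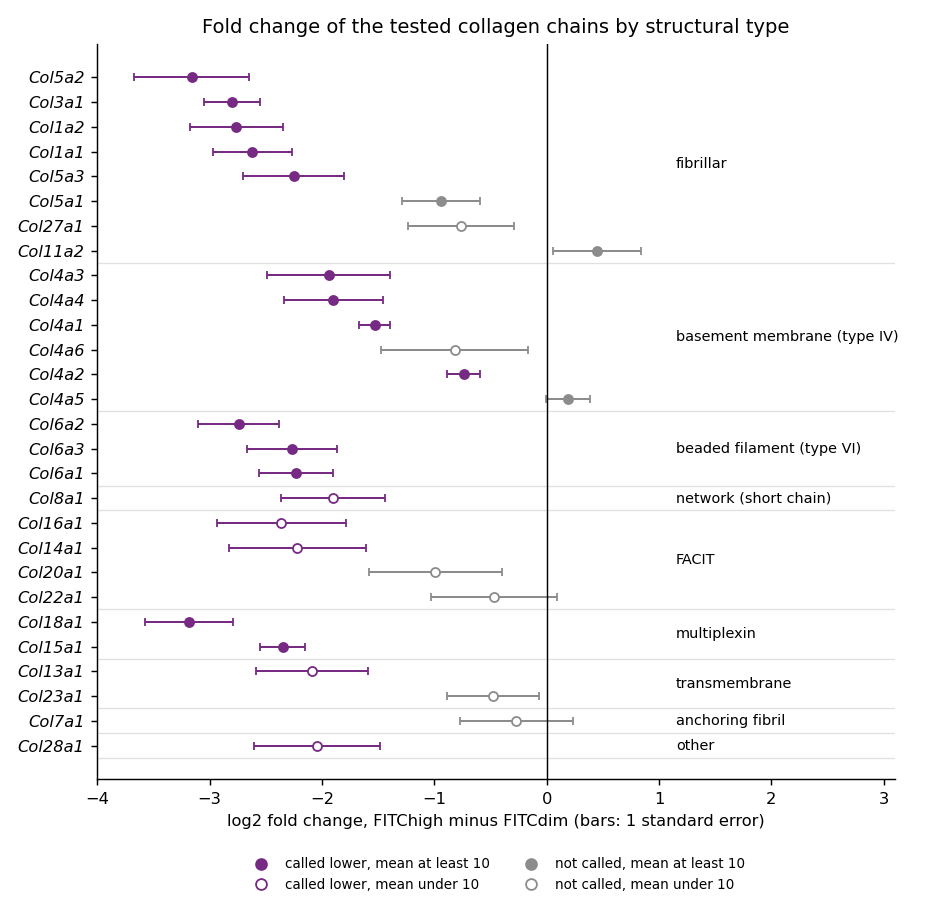
Log2 fold change (FITChigh minus FITCdim, on log2(adjusted read count + 1)) of the 28 tested collagen chains, grouped by structural type, with bars of 1 standard error. Purple marks the 19 chains called lower and grey the 9 not called, and open circles mark chains with a mean under 10. Values run from -3.18 for Col18a1 to 0.45 for Col11a2.

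The fibrillar type held large falls as well as 3 chains that did not pass the test. Of 11 fibrillar chains 8 were tested, of which 5 were lower, 0 higher and 3 not called, with a median log2 fold change of -2.44. The summed type held 69.7, 73.8 and 61.5 adjusted read counts in the FITChigh libraries, and 421, 266 and 258 in the FITCdim libraries.

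Col3a1 (chromosome 1, 45311538 to 45349706 in mm10), the chain of type III collagen of thin reticular fibres, had the highest count of the fibrillar chains. It stood at 16.2, 14.2 and 17.6 adjusted read counts in FITChigh replicates 1, 2 and 3 and at 170, 97.4 and 97.4 in FITCdim replicates 1, 2 and 3. The groups did not overlap, and FITCdim replicate 1 was the highest library. Its log2 fold change was -2.80 (SE 0.25, adjusted p = 1.1e-06), which is 6.98-fold lower in FITChigh.

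The chains of type I collagen, the main fibre of scar and interstitium, were lower by similar amounts. Col1a1 stood at 4.78, 5.87 and 3.04 in FITChigh and at 36.9, 32.2 and 28.7 in FITCdim. The gap between the groups was wide against the spread within either (log2 fold change -2.62, SE 0.35, adjusted p = 5.4e-05). Col1a2, which supplies the other chain of the trimer, stood at 10.6, 3.72 and 6.28 in FITChigh and at 82.3, 49.8 and 28.2 in FITCdim. FITCdim libraries of Col1a2 spread more widely than those of Col1a1, with replicate 1 again the highest, and its log2 fold change was -2.76 (SE 0.41, adjusted p = 1.6e-04). Within a library, the log2 ratio of Col1a1 over Col1a2 averaged -0.44 ± 0.85 over FITChigh and -0.57 ± 0.58 over FITCdim (SD, n = 3; p = 0.8 by a two-sided exact permutation test). That of Col1a1 over Col3a1 averaged -1.64 ± 0.53 and -1.82 ± 0.32 (SD, n = 3; p = 0.8 by the same exact test).

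Type V chains, which co-assemble with type I and set fibril thickness, had fold changes of different size. Col5a2 stood at 0.896, 10.7 and 3.04 in FITChigh and at 48.2, 39.6 and 31.1 in FITCdim. Its FITChigh libraries held 1, 8 and 4 recovered reads, so the level there rests on few reads. The log2 fold change was -3.16 (SE 0.51, adjusted p = 3.7e-04), -2.54 without FITChigh replicate 1 and -3.86 without FITChigh replicate 2. Col5a3 stood at 1.88, 5.58 and 2.30 against 16.6, 11.7 and 29.1, without overlap (-2.25, SE 0.45, adjusted p = 0.0024). Col5a1 stood at 14.3, 12.8 and 17.7 in FITChigh and at 50.2, 19.4 and 25.4 in FITCdim. All 3 FITChigh libraries of Col5a1 lay below those of FITCdim, but the difference did not pass the test (log2 fold change -0.94, SE 0.35, adjusted p = 0.081). It passed without FITCdim replicate 2 (-1.22, adjusted p = 0.021) and after rescaling all libraries to the same total (-1.13, adjusted p = 0.034). The log2 ratio of Col5a1 over Col5a2 was 3.01, 0.23 and 2.21 in FITChigh and 0.06, -0.99 and -0.28 in FITCdim. These ratios did not overlap between the groups, and the exact two-sided permutation p was 0.1, the smallest that 3 against 3 libraries allow (0.33 adjusted over the 10 pairs compared).

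Of the cartilage-type fibrillar chains, Col11a2 was the one tested chain of the type with a higher mean in FITChigh. It stood at 18.2, 15.1 and 7.5 in FITChigh and at 9.76, 11.0 and 6.98 in FITCdim. The groups overlapped, and the log2 fold change of 0.45 (SE 0.39, 95% interval -0.39 to 1.29, adjusted p = 0.5) did not pass. Col27a1 had a log2 fold change of -0.76 (SE 0.47, 95% interval -1.75 to 0.24, adjusted p = 0.32) on 11 reads over FITChigh and 23 over FITCdim. Col2a1 and Col24a1 held 2 reads and 1 read over all libraries, and Col11a1 was listed at 0 in all 6.

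**Figure D2:**
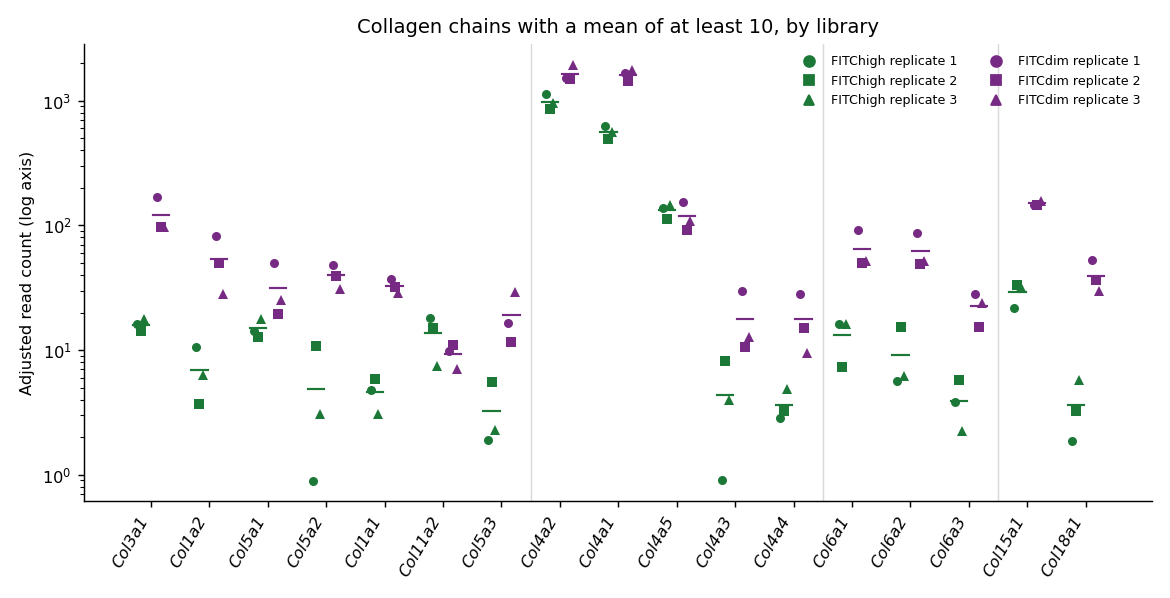
Adjusted read count (log axis) of the 17 chains with a mean of at least 10 in each of the 6 libraries, FITChigh in green and FITCdim in purple, with horizontal lines at group means and vertical lines between structural types (fibrillar, type IV, type VI, multiplexin). Col4a5 and Col11a2 are the chains whose groups overlap. For Col4a1 the FITChigh libraries sit at 498 to 624 and the FITCdim libraries at 1437 to 1769.

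Type IV collagen made up most of the collagen message in both sub-populations and held the smallest fall among the 19 lower chains as well as an abundant chain that was not called. All 6 type IV chains were tested, of which 4 were lower, 0 higher and 2 not called (median log2 fold change -1.17). Their sum was 1897, 1487 and 1686 adjusted read counts in FITChigh and 3393, 3062 and 3845 in FITCdim.

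Col4a1 and Col4a2 encode the chains of the most widespread type IV trimer and had the highest counts of any collagen genes. Col4a1 (chromosome 8, 11198423 to 11312826 in mm10) stood at 624, 498 and 564 in FITChigh and at 1667, 1437 and 1769 in FITCdim. Col4a2 (chromosome 8, 11312805 to 11449287) stood at 1130, 864 and 966 in FITChigh and at 1511, 1505 and 1945 in FITCdim. Neither gene's groups overlapped. The log2 fold change of Col4a1 was -1.53 (SE 0.14, adjusted p = 1.1e-06), which is 2.89-fold lower. That of Col4a2 was -0.74 (SE 0.15, adjusted p = 0.002), which is 1.67-fold lower. Col4a1 and Col4a2 counts were near balance in FITCdim, with ratios of Col4a1 over Col4a2 of 1.1, 0.955 and 0.909, and Col4a1 was the lower in FITChigh, with ratios of 0.553, 0.576 and 0.584. The difference of the log2 ratio was -0.79, without overlap (exact two-sided permutation p = 0.1, the smallest possible, and 0.33 adjusted over 10 pairs). It lay between -0.84 and -0.71 with any single library left out.

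The other type IV genes code for chains of specialised basement membranes, such as those of the kidney glomerulus and of smooth muscle. Col4a5 (chromosome X, 141475385 to 141689234) stood at 139, 112 and 146 in FITChigh and at 155, 91.3 and 109 in FITCdim. The groups overlapped, and the log2 fold change was 0.19 (SE 0.20, adjusted p = 0.59). Its 95% interval of -0.23 to 0.60 runs from 0.854-fold to 1.52-fold, and with one common total the value was -0.01. Behind these values were 401 reads over FITChigh and 420 over FITCdim. Col4a3 stood at 0.901, 8.24 and 3.95 against 29.7, 10.5 and 12.8. Its log2 fold change of -1.94 (SE 0.55, adjusted p = 0.022) was not called without FITChigh replicate 1 (-1.33, adjusted p = 0.11) or without FITCdim replicate 1 (-1.51, adjusted p = 0.12), nor after quantile normalization (-1.52, adjusted p = 0.077). Col4a4 stood at 2.84, 3.23 and 4.88 against 28.3, 15.1 and 9.53. Its log2 fold change was -1.90 (SE 0.44, adjusted p = 0.0063), and -1.51 without FITCdim replicate 1 (adjusted p = 0.062). In both genes the groups did not overlap, and the highest library was FITCdim replicate 1. Col4a6, with 1 read over FITChigh and 6 over FITCdim, was not called (-0.82, SE 0.65, adjusted p = 0.46), and its reads give a rate 5.32-fold lower with a 95% exact binomial interval of 0.645 to 245.

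Col4a4 and Col4a5 assemble with Col4a3 in one trimer. The log2 ratio of Col4a4 over Col4a5 was -5.19, -4.74 and -4.64 in FITChigh and -2.41, -2.52 and -3.38 in FITCdim. The groups did not overlap, and the difference was -2.09 (exact two-sided permutation p = 0.1, adjusted p = 0.33 over 10 pairs). For Col4a3 over Col4a4 the difference was -0.04, with ratios that overlapped (exact two-sided permutation p = 1).

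**Figure D3:**
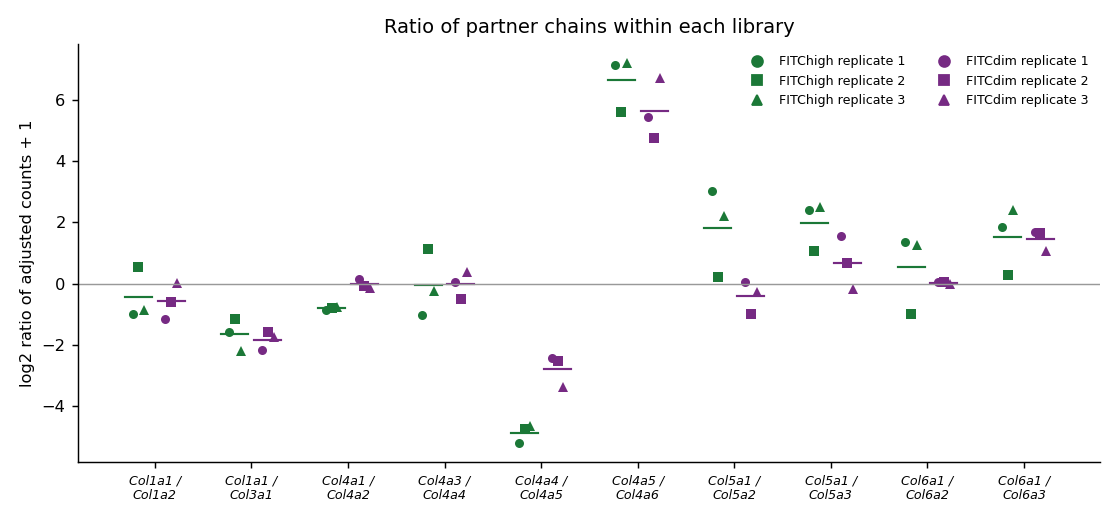
Log2 ratio (adjusted read count + 1) of 10 pairs of collagen chains within each library, FITChigh in green and FITCdim in purple, with horizontal lines at group means. The groups do not overlap for Col4a1 over Col4a2 (-0.85 to -0.77 against -0.14 to 0.14), Col4a4 over Col4a5 and Col5a1 over Col5a2.

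Type IV genes lie in pairs that start head to head on opposite strands. Col4a1 and Col4a2 start on opposite strands of chromosome 8 and share 22 bases of their first exons, which hold 1 GC box. Col4a4 (minus strand) and Col4a3 (plus strand) start 71 bases apart on chromosome 1, and Col4a6 and Col4a5 1308 bases apart on chromosome X. The bases between or before the starts of the latter pairs are shown because Col4a4 and Col4a3 were both lower, by -1.90 and -1.94, while Col4a5 was not called. Those of Col3a1 and Col18a1 are shown as the fibrillar chain with the most reads and the chain with the largest fall. Sequences are from RefSeq (GRCm38.p6), 5′ to 3′ on the strand given, and capitals mark any of 3 promoter motifs on either strand. The letters searched were TATAAA for the TATA-binding site, CCAAT for the site of that name, and GGGCGG for the GC box.
Col4a4 to Col4a3, chr1:82586850-82586920, minus strand: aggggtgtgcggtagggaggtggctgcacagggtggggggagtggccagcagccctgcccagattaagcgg
Col4a6, chrX:141474077-141474196, minus strand: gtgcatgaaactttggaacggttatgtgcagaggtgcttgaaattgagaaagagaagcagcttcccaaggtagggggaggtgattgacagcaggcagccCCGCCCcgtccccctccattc
Col4a5, chrX:141475265-141475384, plus strand: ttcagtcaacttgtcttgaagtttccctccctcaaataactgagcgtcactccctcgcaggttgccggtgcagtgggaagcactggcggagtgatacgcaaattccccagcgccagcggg
Col3a1, chr1:45311418-45311537, plus strand: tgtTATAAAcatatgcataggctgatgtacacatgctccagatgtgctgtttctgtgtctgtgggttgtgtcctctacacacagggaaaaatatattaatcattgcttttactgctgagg
Col18a1, chr10:77166549-77166668, minus strand: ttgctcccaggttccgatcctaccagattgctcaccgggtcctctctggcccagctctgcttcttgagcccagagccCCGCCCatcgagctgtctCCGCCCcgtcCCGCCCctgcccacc
The Col3a1 stretch holds 1 TATAAA, that of Col18a1 holds 3 GC boxes, and that of Col4a6 holds 1 GC box. None of the 3 motifs is in the bases between Col4a4 and Col4a3 or in the 120 shown for Col4a5. The 250 bases before the RefSeq start of Col4a5 hold 1 CCAAT and 1 GC box. Col18a1 has another RefSeq start, and the 250 bases before it hold none of the 3 motifs. Over the 250 bases before all 32851 RefSeq starts, 12.4% hold TATAAA, 33.8% CCAAT and 32.7% GGGCGG. A RefSeq window was found for 23 of the 28 tested chains, with 25 starts in all, and of these starts 3 hold TATAAA, 8 CCAAT and 15 GGGCGG. A match describes the letters of the window only.

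The chains of type VI collagen, whose filaments link basement membranes to the interstitium and whose loss causes muscle disease, were lower without exception among those tested. Of 6 chains 3 were tested and all 3 were lower (median log2 fold change -2.27). Col6a1 stood at 16.3, 7.25 and 16.1 in FITChigh and at 91.5, 50.2 and 51.7 in FITCdim (-2.23, SE 0.33, adjusted p = 1.8e-04). Col6a2 stood at 5.67, 15.4 and 6.14 against 87.1, 49.0 and 51.7 (-2.74, SE 0.36, adjusted p = 5.5e-05). Col6a3 stood at 3.82, 5.73 and 2.24 against 28.0, 15.4 and 23.9 (-2.27, SE 0.40, adjusted p = 8.2e-04). None of the 3 overlapped between groups, and FITCdim replicate 1 was the highest library in each. In FITCdim, Col6a1 and Col6a2 counts were nearly equal in every library, with ratios of 1.05, 1.03 and 1.00. In FITChigh, where the ratios rest on 4 to 20 reads per gene and library, they were 2.87, 0.471 and 2.62 (exact two-sided permutation p = 0.4). Of the untested chains, Col6a6 had 0 reads over FITChigh and 11 over FITCdim, 10 of them in replicate 1. Against the floor of 3 reads over the group, with the 11 reads taken as exact, Col6a6 was at least 3.25-fold lower in FITChigh, and the 95% exact binomial lower limit was 2.22-fold. Without FITCdim replicate 1 it held 0 reads against 1, which gives no fold. Col6a5 held 1 read in all, and Col6a4 was listed at 0.

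Both multiplexins were lower, and one of them, Col18a1, had the largest fall among the 28 tested chains. Col15a1 (chromosome 4, 47208161 to 47313167), found in the outer basement membrane zone of muscle and capillaries, stood at 21.9, 33.2 and 32.0 in FITChigh and at 147, 147 and 156 in FITCdim. The groups did not overlap, and the log2 fold change was -2.35 (SE 0.20, adjusted p = 7.6e-07), which is 5.12-fold lower. Col18a1 (chromosome 10, 77052178 to 77166548), the precursor of the vessel growth inhibitor endostatin, stood at 1.87, 3.23 and 5.77 in FITChigh and at 52.4, 36.2 and 30.0 in FITCdim. These values rest on 11 reads over FITChigh and 139 over FITCdim. The log2 fold change was -3.18 (SE 0.39, adjusted p = 2.6e-05), 9.08-fold lower, and the reads alone give 11.2-fold (95% exact binomial interval 6.07 to 23.0, counting error only).

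Chains of the remaining types were scarce, and their changes rest on few reads. Col8a1, a short-chain network collagen of vessel walls, was the one tested chain of 3 in its type and was lower (-1.90, SE 0.46, adjusted p = 0.0089; 7 reads against 43). It was not called without FITCdim replicate 1 (-1.60, adjusted p = 0.082) or after quantile normalization (-1.34, adjusted p = 0.06). Col8a2 and Col10a1 were listed at 0 in all 6 libraries. Of 9 FACIT chains 4 were tested, of which 2 were lower and 2 not called (median log2 fold change -1.61, and -1.07 without FITCdim replicate 1). That median was -0.47 without a filter on low values (7 chains), -0.75 with a pseudocount of 5 and -0.81 after quantile normalization. Col16a1 was lower (-2.36, SE 0.57, adjusted p = 0.0085) with 0, 2 and 0 reads in FITChigh and 11, 7 and 5 in FITCdim, a rate 10.2-fold lower (95% exact binomial interval 2.52 to 89.2). Without FITCdim replicate 2 it was not called (-2.22, adjusted p = 0.052), nor after quantile normalization (-1.53, adjusted p = 0.063), and without FITChigh replicate 2 its value was -2.98. Col14a1 was lower (-2.22, SE 0.61, adjusted p = 0.019) with 0, 1 and 2 reads in FITChigh and 31, 4 and 3 in FITCdim, a rate 11.2-fold lower (3.56 to 56.8). Most of its reads came from FITCdim replicate 1, and it was not called without that library (-1.56, adjusted p = 0.20) or without FITChigh replicate 1 (-1.76, adjusted p = 0.092), nor after quantile normalization (-1.52, adjusted p = 0.09). Col20a1 (-0.99, 95% interval -2.26 to 0.27, adjusted p = 0.30) and Col22a1, a chain of muscle-tendon junctions (-0.47, 95% interval -1.67 to 0.73, adjusted p = 0.65), were not called. Col12a1 did not pass the filter, with 0, 0 and 3 reads in FITChigh and 8, 0 and 0 in FITCdim, a rate 2.36-fold lower (0.567 to 13.8). Without FITCdim replicate 1 the direction turns, to 3 reads against 0. Col9a2 and Col9a3 held 1 read and 2 reads. Col9a1 and Col19a1 were listed at 0.

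Of the transmembrane chains, Col13a1, which acts at the nerve-muscle synapse, was lower (-2.09, SE 0.50, adjusted p = 0.0081). It had 2 reads over FITChigh and 19 over FITCdim, a rate 8.42-fold lower with a 95% exact binomial interval of 2.03 to 74.5. After quantile normalization Col13a1 was not called (-1.20, adjusted p = 0.11), and it did not pass the filter with any FITCdim library left out. Col23a1 stood at 6.70, 7.38 and 3.79 against 11.4, 7.57 and 6.96 adjusted read counts, and its groups overlapped (-0.48, 95% interval -1.36 to 0.39, adjusted p = 0.50). Col17a1 and Col25a1 held 1 read each. Col28a1, a collagen of peripheral nerve basement membranes, was called lower (-2.04, SE 0.56, adjusted p = 0.018) on 2 reads against 16, a rate 7.09-fold lower (1.67 to 63.6). Its adjusted p rose above 0.05 with any library other than FITChigh replicate 3 left out, with values between -2.26 and -1.79, and after quantile normalization (-1.15, adjusted p = 0.17). Col7a1, the anchoring fibril chain of skin, was not called (-0.27, 95% interval -1.34 to 0.80, adjusted p = 0.78; 17 reads against 21). Col26a1 held 1 read.

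Levels were compared between chains per kilobase of the longest annotated transcript. In FITCdim, Col4a2 stood at 256 and Col4a1 at 246 adjusted read counts per kilobase, followed by Col15a1 at 29.0, Col3a1 at 21.9, Col4a5 at 18.1 and Col6a1 at 15.7. In FITChigh, Col4a2 stood at 153 and Col4a1 at 85.0, followed by Col4a5 at 20.3, Col15a1 at 5.61, Col6a1 at 3.22 and Col3a1 at 2.88. Col4a5 thus came after Col15a1 and Col3a1 in FITCdim and before both in FITChigh. With the union of exons as the length, Col3a1 in FITCdim came to 12.4, below Col4a5 at 17.6. On the per-kilobase scale type IV chains made up 90.8% ± 1.36 of collagen message in FITChigh and 79.9% ± 4.2 in FITCdim. Fibrillar chains made up 3.82% ± 0.62 and 8.05% ± 2.13, multiplexins 2.24% ± 0.701 and 5.53% ± 0.473, and type VI chains 1.93% ± 0.205 and 4.71% ± 1.46 (SD, n = 3 each). With the union of exons, type IV made up 92.2% and 83.3%.

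**Figure D4:**
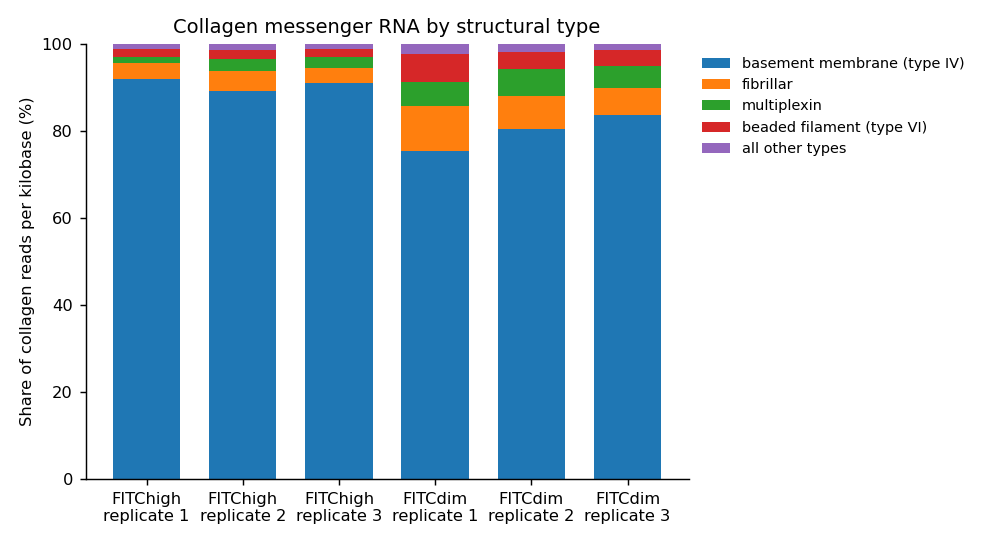
Share of each structural type in the summed collagen adjusted read counts per kilobase, in percent, for each of the 6 libraries as stacked bars from 0 to 100. Type IV takes 89.3% to 92.0% in FITChigh and 75.4% to 83.8% in FITCdim.

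FITCdim replicate 1 stood apart for interstitial chains. Its fibrillar sum of 421 compared with 266 and 258 in the other FITCdim libraries, its type VI sum of 214 with 115 and 129, and its FACIT sum of 42.4 with 18.0 and 16.5. Among FITCdim libraries the same library had the highest summed markers of fibroblasts (604 against 449 and 436), macrophages (919 against 474 and 406) and endothelium (6234 against 5587 and 5630). The same held for pericytes and smooth muscle (2594 against 1967 and 2465) and Schwann cells (26.7 against 18.6 and 11.8). Its epicardial sum (168 against 168 and 83.3) and atrial sum (1578 against 2603 and 1232) did not stand apart. Its cardiomyocyte sum was the lowest (260653 against 307324 and 318336), with Myh6 at 76053 against 91115 and 122952. Members of a marker list did not all follow its sum. Of the endothelial markers, Fabp4 (1442 against 1156 and 1078) and Pecam1 (806 against 550 and 515) were highest in FITCdim replicate 1. Cdh5 (802 against 984 and 1143) and Kdr (569 against 587 and 746) were lowest there. Of the fibroblast markers, Gsn was highest there (318 against 169 and 200) and Fbln1 was not (175 against 215 and 174). The part of the marked cell types in the difference was not tested. The type IV sum of FITCdim replicate 1 (3393) lay between those of the other FITCdim libraries, 3062 and 3845. Without this library 13 of 26 tested chains were lower and 0 higher, beside 1152 lower and 148 higher of all 12372 genes tested. The 13 lower chains included Col1a1, Col1a2, Col3a1, Col4a1, Col4a2, Col15a1, Col18a1 and the 3 type VI chains.

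Most tested genes that make or process collagen did not pass the test. Of 30 tested genes of collagen biosynthesis and crosslinking, 7 were lower, 0 higher and 23 not called, with a median log2 fold change of -0.24. Of all genes tested 13.5% were lower, the share to set beside this list and those below. P4hb, the shared subunit of prolyl hydroxylase, had the highest count of this list and stood at 615, 607 and 578 in FITChigh and at 621, 611 and 574 in FITCdim (log2 fold change 0.00, SE 0.12, adjusted p = 0.99). Serpinh1, the collagen chaperone, stood at 548, 524 and 453 against 600, 572 and 520 (-0.15, SE 0.13, adjusted p = 0.50). The lower members included Loxl2, a lysyl oxidase that crosslinks type IV collagen (-2.70, adjusted p = 0.0015), and Glt25d2, a collagen galactosyltransferase (-2.52, adjusted p = 0.0024). Sparc, a collagen-binding matricellular protein, stood at 153, 207 and 166 against 930, 907 and 709 (-2.27, SE 0.15, adjusted p = 7.4e-08). Tll1, a procollagen processing protease, was also called lower, with 0 reads over FITChigh and 10 over FITCdim. With the 10 reads taken as exact, Tll1 was at least 2.95-fold lower against the floor of 3 reads over the group. The 95% exact binomial lower limit, which allows for counting error in both groups, was 1.99-fold. The list had 4 lower genes of 30 tested after quantile normalization, beside 1213 of 12907 over all genes. Without FITCdim replicate 1 it had 4 of 29, beside 1152 of 12372.

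Of 8 tested collagen receptor genes 5 were lower, 0 higher and 3 not called (median log2 fold change -1.82, and -1.58 with Itga11 at the floor's value). Itgb1, the beta subunit of the collagen-binding integrins, had the highest count and stood at 1190, 1075 and 1057 against 1443, 1289 and 1223 (-0.25, SE 0.13, adjusted p = 0.22). Itga1, its alpha partner with a preference for type IV collagen, stood at 34.4, 14.7 and 48.7 against 119, 86.3 and 138 (-1.91, SE 0.33, adjusted p = 6.3e-04). Lower too were Mrc2, an endocytic collagen receptor (-2.37, adjusted p = 8.7e-04), and Lair1, an inhibitory receptor of immune cells (-2.11, adjusted p = 0.009; 3 reads against 23, a rate 6.79-fold lower with a 95% exact binomial interval of 2.05 to 35.4). Itga11, an integrin of fibroblasts, was called lower with 0 reads against 9. With the 9 reads taken as exact it was at least 2.66-fold lower against the same floor, and the 95% exact binomial lower limit was 1.75-fold. Itga11 and Lair1 passed the filter on low values through FITCdim, as did Tll1, Lox, Loxl2 and Fmod of the other collagen-related lists. Ddr2, the fibrillar collagen kinase of fibroblasts, had a log2 fold change of -1.75 (adjusted p = 8.9e-04) while Ddr1 stood at 0.13 (adjusted p = 0.69). Itga10 was not called either. Without FITCdim replicate 1, and likewise without FITCdim replicate 3, 3 of 7 tested receptor genes were lower. Of all genes, 1152 of 12372 and 1396 of 12375 were lower under these settings.

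Most small proteoglycans that coat collagen fibrils were lower. Of 8 tested, 6 were lower, 0 higher and 2 not called (median log2 fold change -3.06). Fmod, fibromodulin, stood at 0.965, 0.0326 and 0 in FITChigh and at 48.7, 49.0 and 25.6 in FITCdim. It had 1 read over FITChigh and 141 over FITCdim (log2 fold change -5.0, SE 0.45, adjusted p = 1.2e-06), a rate 125-fold lower with a 95% exact binomial interval of 22.1 to 4970. Prelp (-3.21, adjusted p = 7.3e-05), Dcn, decorin (-3.18, adjusted p = 7.7e-07), and Aspn, asporin (-3.09, adjusted p = 1.9e-05), were the next. Ogn, osteoglycin, had the highest count of the list and stood at 294, 266 and 326 in FITChigh and at 266, 265 and 244 in FITCdim (0.19, SE 0.14, adjusted p = 0.41). Whether these lists differed from the chains was not tested.

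**Figure D5:**
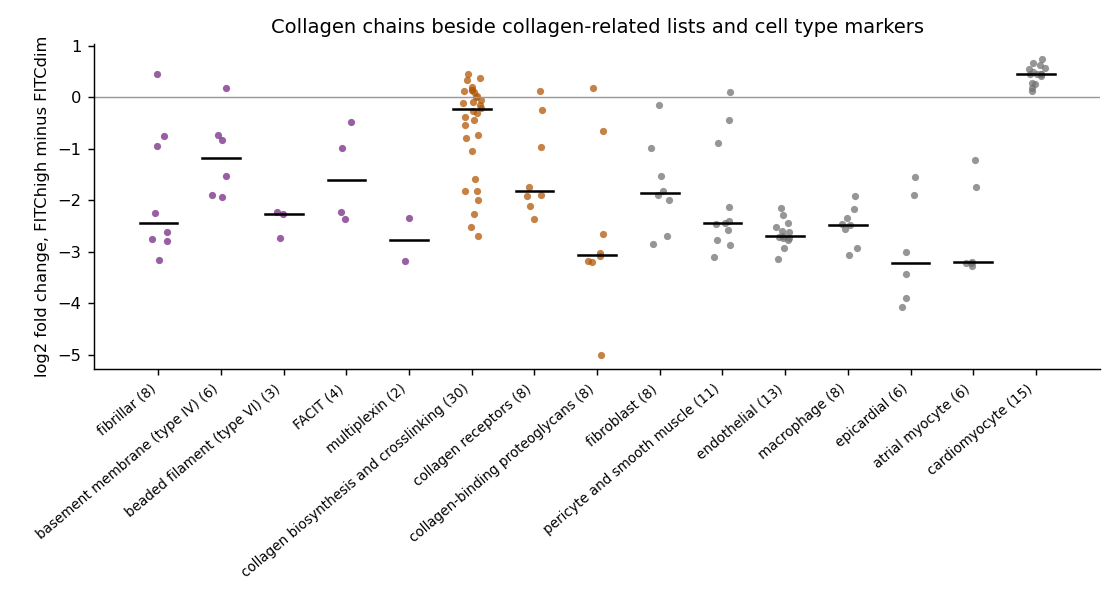
Log2 fold change (FITChigh minus FITCdim) of each tested gene, by collagen type (purple), collagen-related list (orange) and cell type marker list (grey), with the number of genes in parentheses and a black line at the median. Medians are -2.44 for fibrillar chains, -1.17 for type IV chains, -0.24 for biosynthesis genes, -1.86 for fibroblast markers and -2.70 for endothelial markers.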

How the data were processed

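RNA of 6 sorted mouse samples was sequenced from stranded mRNA libraries with paired 75 bp reads, per the labels' protocols. The submitters' processing notes name STAR 2.5, edgeR and mm10. The sources used here do not give the counting program, its annotation or its strand setting. The values the authors deposited are a signal, namely reads per gene scaled towards equal library sizes without regard to gene length. Columns were matched by sample title. Of the gene lines 6 are garbled and were left out (none a collagen), leaving 23404.

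Reads were recovered by undoing a quantile adjustment under a negative binomial model (dispersion 0.0203). Of the resulting values 100% lay within 0.1 of a whole number, and 1 read was worth 0.607 to 1.537 adjusted read counts. Reads were used for depth, exact binomial intervals at 95%, the floor of 3 reads and 1 alternative test; intervals and floors cover counting error only.

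Genes at 1 or more in at least 3 libraries (12907) were tested as log2(value + 1) with limma-trend (limma 3.58.1, R 4.3.3; two-sided, no block, Benjamini-Hochberg at 0.05); fold changes on this scale understate those of low genes. The 10 partner-chain ratios were compared by exact permutation over 20 assignments. On simulated reads (13006 genes tested, 200 changed in random directions, dispersion 0.05) the test called 27.3% of 2-fold and 82.5% of 4-fold changes, with 2.7% false calls. The simulation had few changed genes and no shift between the groups, so these rates need not hold for the data. Replicate libraries differed by more than counting noise (chi-square over its degrees of freedom 3.63 to 6.09).

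The members and lists were chosen with earlier results of these data known. Chains with a mean of at least 10 are given by library; other called chains, and in each list the most abundant gene and up to 4 with the largest called change, are named, and further genes were picked with their values in view. Positions and lengths are from GENCODE M21 (GRCm38), where all 44 chains were matched. Replicates are numbered in accession order. The 15 alternatives covered the pseudocount (0.5 and 5), filter, scaling, robust fitting, limma-voom, a block and each library left out.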

Additional observations from a re-analysis of the deposited data

How the results depend on the processing

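The count of lower collagen chains, 19 of 28 tested, ran from 13 to 20 over the 15 alternatives, and 0 chains were higher under any of them. It was 13 after quantile normalization and 13 to 19 with single libraries left out. With a filter at 10 it was 13 of 16 tested, beside 1253 of all 10032 genes tested. Of the 19 chains, 12 were called under every alternative that tested them. Those that were not are Col4a3, Col4a4, Col8a1, Col13a1, Col14a1, Col16a1 and Col28a1. Col4a3 held 12 reads over FITChigh and 65 over FITCdim, and Col5a3, which kept its call throughout, held 9 and 63. The part of read number was not tested. Signs of uncalled chains turned for Col22a1 (0.62), Col23a1 (0.14) and Col7a1 (0.42) after quantile normalization, and for Col4a5 with one common total (-0.01). With single libraries left out, Col22a1 ran from -0.86 to 0.01 and Col7a1 from -0.71 to 0.16. The median of the tested chains, -1.99, was -1.15 with a pseudocount of 5, -1.22 without a filter (38 chains) and -1.43 after quantile normalization. Over all genes the median went from -0.01 to -0.20 with one common total and to 0.13 after quantile normalization.

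Among all genes, 1748 were lower and 324 higher. One common total gave 2189 lower and 41 higher, and quantile normalization gave 1213 and 467. Leaving out single libraries gave 1152 to 1672 lower and 67 to 341 higher. Lower biosynthesis genes numbered 4 after quantile normalization and 4 to 8 with a library left out, beside 7. Lower receptor genes numbered 2 of 4 tested with a filter at 10 and 3 to 5 with a library left out, beside 5 of 8. Differences in log2 ratio changed sign when a library was left out for Col1a1 over Col1a2 (-0.35 to 0.44), Col1a1 over Col3a1 (-0.07 to 0.46), Col4a3 over Col4a4 (-0.62 to 0.45) and Col6a1 over Col6a3 (-0.40 to 0.66). The cause of these shifts was not tested.

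The sample titles share tags across the sub-populations, but the labels do not say what a tag stands for. Deviations from the group means correlated at 0.07 to 0.17 between libraries with the same tag and at -0.12 to -0.01 between others, and all 6 libraries correlated best with their own tag, a hint from the data and not from the design. Such deviations cancel out within a group, so these correlations are not independent of each other. With the tag as a replicate block 20 collagen chains were lower and 0 higher, Col5a1 passed (adjusted p = 0.042), and 2 biosynthesis genes were higher. Of all 12907 genes tested 2059 were then lower and 1064 higher, beside 1748 and 324 without the block. Of the 44 chains 16 did not pass the filter, 6 of them with 0 reads in all libraries, and the part of depth was not tested.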
